A study of Mus musculus with 8 samples.

Results

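The state of TTE3 cells after 12 h at 39 °C is described here, as 2 arrays taken at 12 h against 2 arrays taken at the start of that culture. These 4 arrays belong to a time course of 8 arrays and were chosen by the hours in their titles. All 22626 probe sets that are not controls were used, and 13576 of them passed a filter on dim signals. They stand for 7707 named genes. TTE3 is a line of Sertoli cells, the somatic cells that nurse germ cells in the testis tubule. It was made from transgenic mice with a temperature-sensitive SV40 large T-antigen, which the cells of all 4 times carry. RNA was hybridised to the Affymetrix Mouse Expression Array 430A, 1 sample per array, with 2 arrays each at 0, 6, 12 and 24 h. All groups come from 1 line. The labels used here give neither the temperature before the shift nor the growth medium.

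Large T-antigen binds p53 and the retinoblastoma proteins, and the temperature-sensitive form loses its function at the nonpermissive temperature. DNA replication starts when the origin recognition complex and Cdc6 load the Mcm helicase. Cdc45 and the GINS complex then switch the helicase on, and the polymerases copy both strands behind it. Many of these genes are targets of the E2F factors, which retinoblastoma proteins restrain. Ribosome biogenesis runs in the nucleolus: RNA polymerase I makes the precursor of ribosomal RNA, small nucleolar particles modify it, and assembly factors fold, cut and export the subunits. MYC is a well-known driver of these genes. In dividing cells both programmes are usually active together.

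At 12 h, 3257 probe sets (24.0% of those tested) differed from 0 h at an adjusted p under 0.05 (limma, Benjamini-Hochberg), which is called a change throughout. Of these, 1646 (12.1%) were higher and 1611 (11.9%) lower. Per gene, with its brightest probe set, 1023 of 7707 genes rose (13.3%) and 924 fell (12.0%), and the median log2 difference was 0.02. Higher calls made up 50.5% of all calls on the deposited scale and 40.4% after each array was centred on its median. Without 0 h replicate 1, 0 h replicate 2, 12 h replicate 1 or 12 h replicate 2, 1523, 1587, 2256 and 2084 probe sets were called. Between the arrays of 1 time, r over probe sets (no independent replicates) ran from 0.9788 to 0.9858. Whether the samples of 1 time were grown apart is not in the labels. The p-values therefore measure the spread between these samples, which may be technical. Time in culture, temperature and the state of the T-antigen cannot be told apart in this contrast, nor can fewer cells with a transcript and less transcript per cell.

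Of 28 Sertoli cell markers, 15 passed the filter, and their median log2 difference at 12 h was 0.07. Vim, a filament protein of Sertoli cells, had signals of 18399 and 17993 units at 0 h and 19746 and 19974 units at 12 h. Gata4, a gonadal transcription factor, had 552 and 560 units at 0 h and 526 and 393 units at 12 h, and Nr5a1, another, had 348 and 358 against 315 and 282 units. Wt1 and Sox9, the factors that define the lineage, were dim, at 162 and 180 units and 109 and 167 units at 0 h. None of these 5 genes was called. Cdh2, the N-cadherin of Sertoli junctions, fell from 3011 and 2976 to 2060 and 1975 units (log2 -0.56, adjusted p = 0.00355). The other 2 called markers rose with single arrays deciding. Clu changed by 0.68 (adjusted p = 0.00658, lost at 0.0564 without 0 h replicate 2 and at 0.0562 without 12 h replicate 1). Krt18 changed by 0.39 (adjusted p = 0.0216; 0.0829, 0.149, 0.0711 and 0.0923 without 0 h replicates 1 and 2 and 12 h replicates 1 and 2). Of the other cell types' markers, 1 of 8 for Leydig cells, 4 of 8 for myoid cells, 3 of 10 for macrophages and blood, 1 of 13 for germ cells and 0 of 7 for endothelium passed the filter. Of these 9 genes 1 was called, Kit, which was higher by 0.73 (adjusted p = 0.0106, lost at 0.116 without 0 h replicate 1 and at 0.0522 without 12 h replicate 2), and its part in other results was not tested.

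Replication genes more often rose than fell between the start and 12 h. Of 89 listed genes, 74 were tested, 28 rose (37.8%, against 13.3% of all genes), 6 fell and 40 were not called. Their median log2 difference was 0.25, against 0.02 over all genes, with 54 values above 0 and 20 below. With 0 h replicate 1, 0 h replicate 2, 12 h replicate 1 or 12 h replicate 2 left out, 16, 17, 22 and 17 genes rose and 1, 3, 4 and 1 fell. With centred arrays 21 rose and the median was 0.19. The filter on dim signals used all 8 arrays and left out 2 of the 76 listed genes that had a probe set of 1 symbol.

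**Figure D1:**
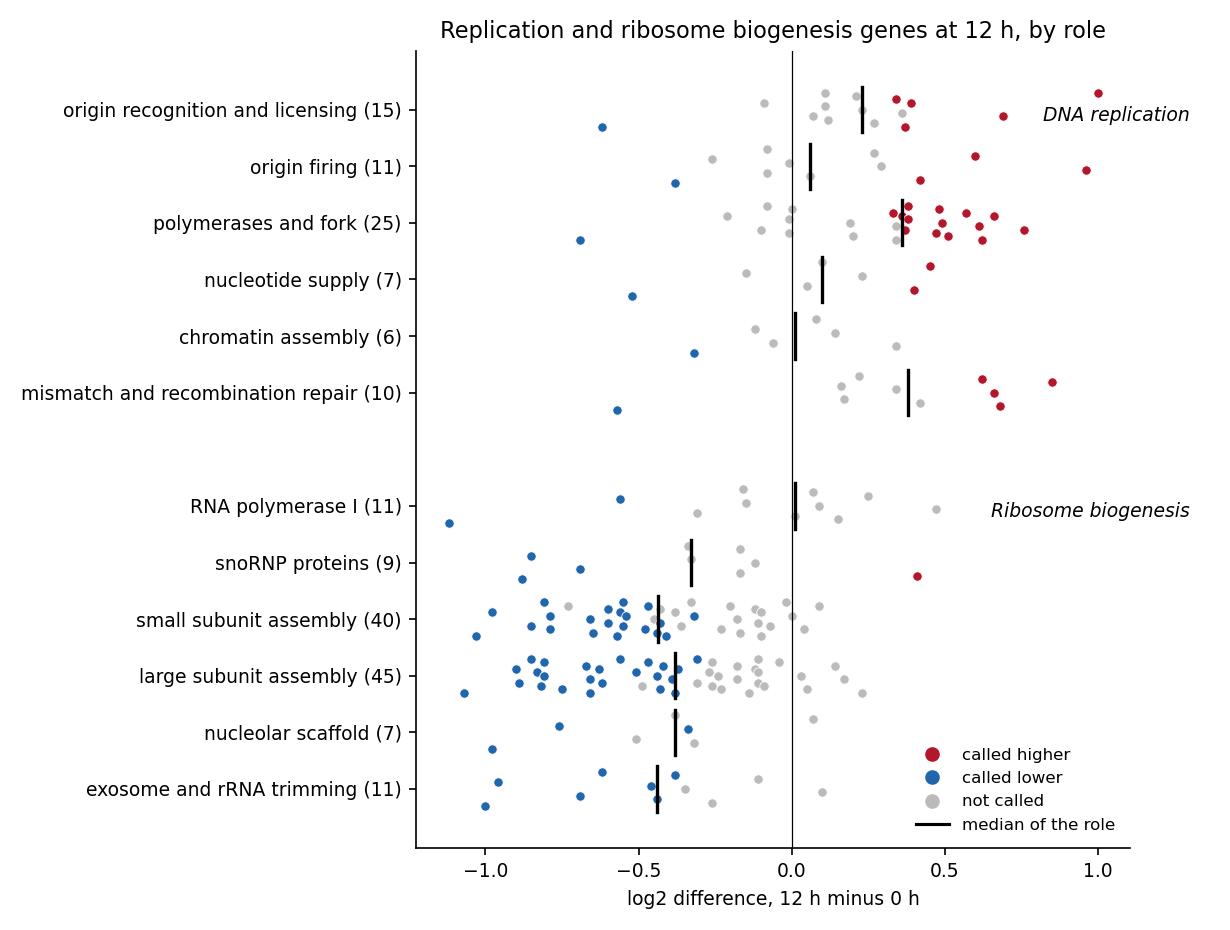
Log2 difference of 12 h against 0 h (x axis) for each tested DNA replication and ribosome biogenesis gene, by role (rows). Red points were called higher, blue points lower and grey points not called, and a black bar marks the median of a role. Replication points lie mostly right of 0, with a median of 0.36 for polymerases and fork proteins, and ribosome points lie mostly left of 0, with medians of -0.44 and -0.38 for small and large subunit assembly.

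Promoter windows of the replication genes often hold words bound by E2F factors. In RefSeq windows of 300 bases (250 before and 50 after the first listed start, GRCm38.p6), the words TTTCGCGC, TTTGGCGC, TTTCCCGC and TTTGCCGC were searched on both strands; overlapping hits counted once per gene. A word was found for 19 of 64 tested replication genes with a window (29.7%), 11 of 25 that rose (44.0%) and 7 of 35 not called. The share was 4.72% of the 6337 tested genes with a window and 2.32% of all 27025 windows. A match describes the letters and is not a measured site. Below, 3 stretches of 80 bases are shown for genes that rose at 12 h, 1 helicase loader, 1 helicase subunit and 1 polymerase, with the words in capitals.
Cdc6, chr11:98907977-98908056, plus strand: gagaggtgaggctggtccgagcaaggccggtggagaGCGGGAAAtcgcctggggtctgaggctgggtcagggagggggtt
Mcm5, chr8:75109324-75109403, plus strand: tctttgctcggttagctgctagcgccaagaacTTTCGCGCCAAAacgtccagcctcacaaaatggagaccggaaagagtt
Pola1, chrX:93632250-93632329, minus strand: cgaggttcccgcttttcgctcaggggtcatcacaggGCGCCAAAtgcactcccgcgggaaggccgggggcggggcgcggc
In Cdc6 and in Pola1 the word ends 131 bases before the start. In Mcm5 a pair of overlapping matches forms 1 run.

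Among 15 licensing genes, which mark origins and load the helicase, 5 rose and 1 fell, and 2, 2, 3 and 3 rose without 0 h replicates 1 and 2 or 12 h replicates 1 and 2. Cdc6, the loader, had 912 and 975 signal units at 0 h, 1541 and 1827 at 6 h, 1678 and 2176 at 12 h and 1733 and 1802 at 24 h. Every later array lay above both 0 h arrays. The 12 h level was 2.0-fold that at 0 h (log2 1.0 ± 0.13 SE, adjusted p = 0.000419). Mcm5, a subunit of the helicase ring, had 1618 and 1448 units at 0 h and 2399 and 2588 at 12 h, with no overlap (log2 0.69 ± 0.1, adjusted p = 0.000735). The other helicase subunits changed less: Mcm6 by 0.39, Mcm4 by 0.37 and Mcm7 by 0.34 on the log2 scale. Their calls (adjusted p = 0.0104, 0.0123 and 0.0197) rested on single arrays. Mcm6 was lost without 0 h replicate 1 (0.0682), 0 h replicate 2 (0.0854) or 12 h replicate 2 (0.0862). Mcm4 was lost without 0 h replicate 1 (0.0602), 0 h replicate 2 (0.115) or 12 h replicate 1 (0.0616), and Mcm7 without any of the 4 arrays (0.0741 to 0.163). Mcm2 and Mcm3 were not called, with log2 differences of 0.21 and 0.23. Orc2, a subunit of the origin recognition complex, fell by 0.62 (adjusted p = 0.00949, lost at 0.111 without 0 h replicate 1 and at 0.0798 without 12 h replicate 2).

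Of 11 firing genes, 3 rose and 1 fell. Cdc45, which joins the helicase when an origin fires, had 464 and 571 units at 0 h, 890 and 748 at 6 h, 1007 and 1037 at 12 h and 760 and 710 at 24 h. Its 12 h arrays were the highest of the course, and the rise from 0 h was 0.96 ± 0.13 on the log2 scale (adjusted p = 0.000499). Mcm10, a factor that helps the helicase start, had 463 and 491 units at 0 h and 722 and 743 at 12 h (log2 0.6 ± 0.11, adjusted p = 0.00252). Cdc7, the kinase that phosphorylates the helicase, was called at 0.42 (adjusted p = 0.0388) but not when any 1 of the 4 arrays was left out (0.0703 to 0.252). The median of the firing genes was 0.06, and Gins1, a GINS subunit, had a log2 difference of -0.08.

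Polymerases and fork proteins changed most broadly, with 14 of 25 risen and 1 fallen and a median log2 difference of 0.36. With 1 array left out, 8, 9, 11 and 8 rose (0 h replicates 1 and 2, 12 h replicates 1 and 2). Pcna, the sliding clamp, had 9786 and 9585 units at 0 h and 13476 and 14162 units at 12 h. Its arrays did not overlap, and the log2 difference was 0.51 ± 0.09 (adjusted p = 0.00175). The single-strand binding complex RPA moved as a whole: Rpa3 rose by 0.76 ± 0.11 (adjusted p = 0.000634), Rpa2 by 0.57 ± 0.1 (adjusted p = 0.00257) and Rpa1 by 0.49 ± 0.09 (adjusted p = 0.00248). Rpa1 held 8145 and 8640 units at 0 h, 8749 and 8760 at 6 h and 11351 and 12290 at 12 h, so most of its rise lay after 6 h. Rfc2, a subunit of the clamp loader, had the same shape, with 1617 and 1583 units at 0 h, 1816 and 1517 at 6 h and 2494 and 2601 at 12 h (log2 12 h against 0 h 0.66 ± 0.11, adjusted p = 0.00123). Pola1, the catalytic subunit of the priming polymerase, rose by 0.62 ± 0.11 (adjusted p = 0.00252), and Fen1, the flap nuclease of lagging strands, by 0.47 ± 0.09 (adjusted p = 0.0044).

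The leading-strand polymerase epsilon was split. Pole2, its second subunit, had 591 and 629 units at 0 h and 993 and 891 at 12 h and rose by 0.61 ± 0.12 (adjusted p = 0.00351). Pole, the catalytic subunit, had 1513 and 1399 units at 0 h, 606 and 672 at 6 h, 815 and 980 at 12 h and 898 and 872 at 24 h. All 6 later arrays lay below both 0 h arrays, and at 12 h the fall was 0.69 ± 0.12 on the log2 scale (adjusted p = 0.00183).

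Of 7 nucleotide supply genes, 2 rose and 1 fell, and none of these calls held with each array left out. Rrm2, the regulated subunit of ribonucleotide reductase, had 6512 and 6411 units at 0 h, 5579 and 6340 at 6 h, 8342 and 8755 at 12 h and 6745 and 6273 at 24 h. The 12 h arrays stood above all others. The log2 difference from 0 h was 0.4 (adjusted p = 0.0109; 0.0738, 0.086 and 0.0705 without 0 h replicate 1, 0 h replicate 2 and 12 h replicate 2). Tk1, thymidine kinase, had 2731 and 2638 units at 0 h, 1675 and 1431 at 6 h and 2906 and 2664 at 12 h. It was thus low at 6 h and overlapped the 0 h level at 12 h, with a log2 difference from 0 h of 0.05 and from 6 h of 0.84 (adjusted p = 0.00167). In chromatin assembly, 1 of 6 genes was called, Nasp, a histone chaperone, which was lower by 0.32 (adjusted p = 0.0466; 0.0889 to 0.187 without any 1 of the 4 arrays), while another of its probe sets was higher by 1.14.

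Mismatch and recombination repair genes work at the fork as well, and 4 of 10 rose and 1 fell. Msh6, a mismatch sensor, had 1136 and 1027 units at 0 h, 1828 and 2090 at 6 h and 1932 and 2005 at 12 h (log2 12 h against 0 h 0.85 ± 0.1, adjusted p = 0.000242). Rad54l, Brca1 and Exo1, which act in recombination and end resection, rose by 0.68, 0.66 and 0.62 (adjusted p = 0.00162, 0.000843 and 0.00488). All 4 rises held with each array left out. Brca2, of recombination repair, fell by 0.57 (adjusted p = 0.00979, lost at 0.0939 without 0 h replicate 1 and at 0.0645 without 12 h replicate 2).

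**Figure D2:**
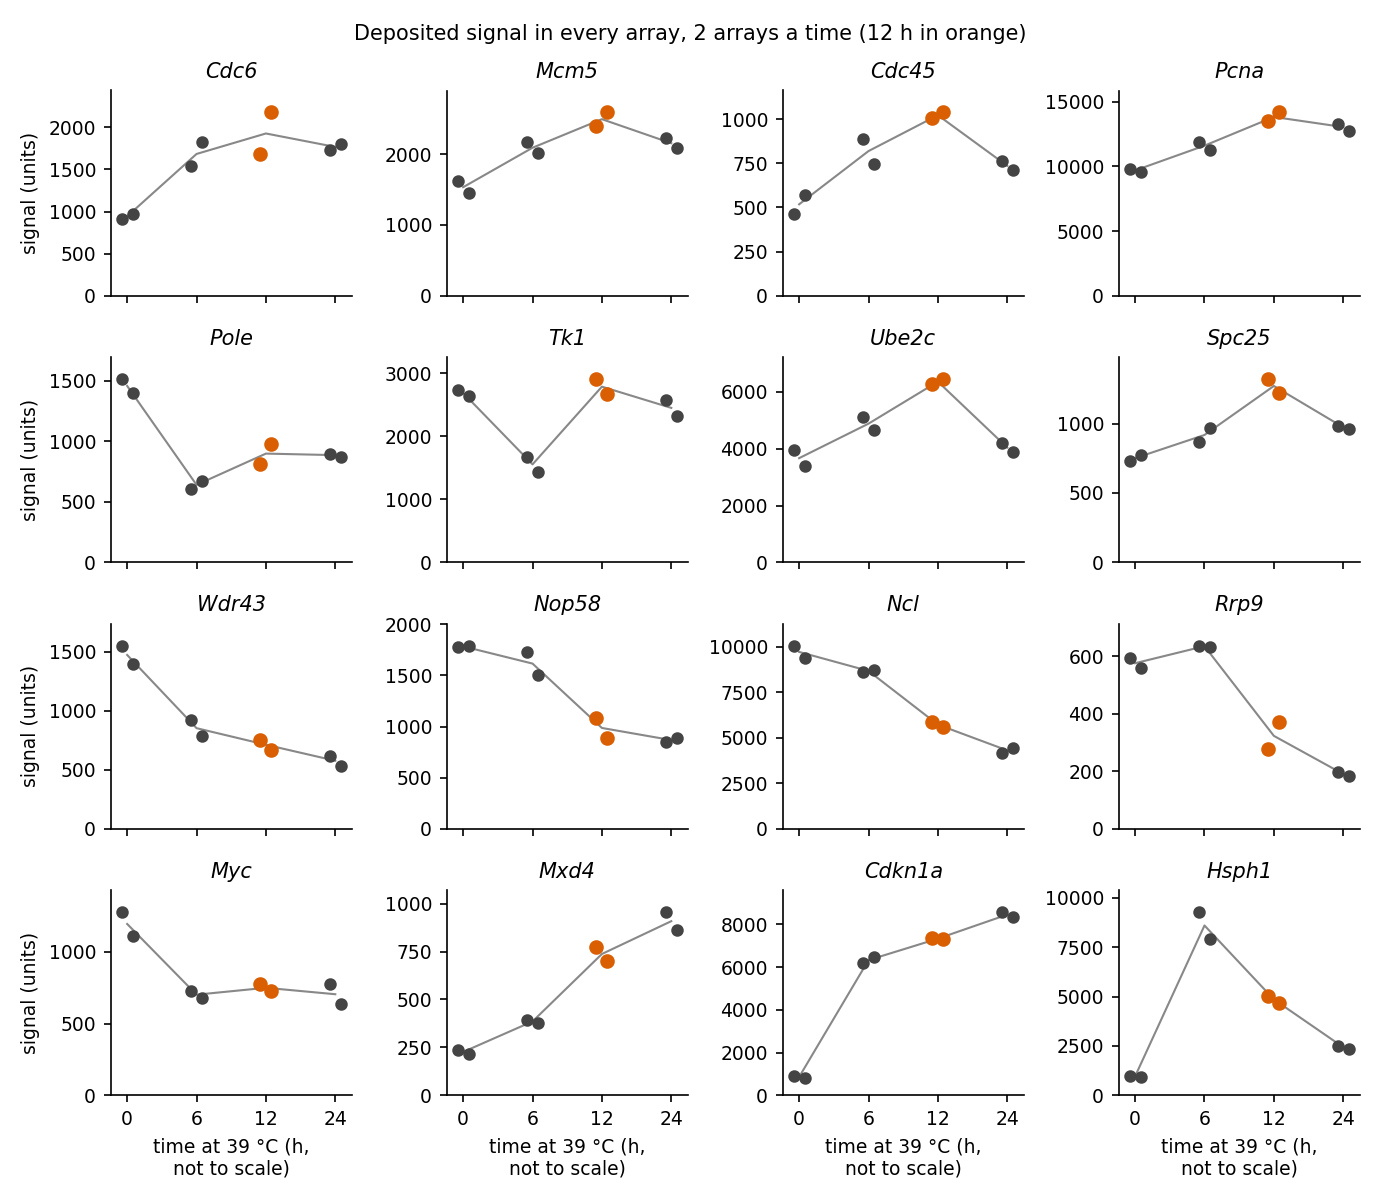
Signal in each of the 8 arrays (y axis, units on a linear scale from 0) against hours at 39 °C (x axis) for 16 genes, with the 12 h arrays in orange and a line through the means of the times. Cdc45 stands at 1007 and 1037 units at 12 h against 464 and 571 at 0 h, Tk1 is lowest at 6 h, and Wdr43 and Ncl fall at each later time.

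Ribosome biogenesis genes were lower at 12 h. Of 145 listed genes, 123 were tested, and 60 fell (48.8%, against 12.0% of all genes), 1 rose and 62 were not called. The median log2 difference was -0.38, with 106 values below 0 and 17 above. With 0 h replicate 1, 0 h replicate 2, 12 h replicate 1 or 12 h replicate 2 left out, 36, 35, 47 and 41 genes fell. Quantile normalization gave 58 fallen genes and a median of -0.35, and centred arrays 68 and -0.43.

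The E-box CACGTG, a word that MYC and its relatives bind, reads the same on both strands. It lay in the promoter windows of 24 of 103 tested ribosome biogenesis genes (23.3%), of 14 of 51 that fell (27.5%) and of 10 of 51 not called (19.6%). Its share was 695 of 6337 tested genes with a window and 7.24% of all windows. Among replication genes it was 5 of 64 (7.81%), while E2F words were found for 6 of the 103 ribosome genes (5.83%). Stretches of 3 genes that fell, 2 of small subunit assembly and 1 of export, are shown with the E-box in capitals.
Utp18, chr11:93885767-93885846, minus strand: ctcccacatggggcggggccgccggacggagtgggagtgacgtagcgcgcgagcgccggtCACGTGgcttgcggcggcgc
Nol11, chr11:107189382-107189461, minus strand: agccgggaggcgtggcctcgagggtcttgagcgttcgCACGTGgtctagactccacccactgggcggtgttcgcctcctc
Nmd3, chr3:69721904-69721983, plus strand: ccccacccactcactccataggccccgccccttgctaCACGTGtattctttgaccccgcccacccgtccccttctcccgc
The E-box ends 15 bases before the start in Utp18, 38 in Nol11 and 109 in Nmd3.

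Of 11 genes of the RNA polymerase I machinery, 2 fell, and the median was 0.01. Polr1b, the second largest subunit of the enzyme, had 440 and 491 units at 0 h, 302 and 370 at 6 h, 184 and 220 at 12 h and 180 and 181 at 24 h. No 12 h array overlapped the earlier times, and the log2 difference from 0 h was -1.12 ± 0.15 (adjusted p = 0.000533). Polr1e, the other called gene, was lower by 0.56 (adjusted p = 0.0122; 0.1, 0.0544 and 0.0865 without 0 h replicate 1, 0 h replicate 2 and 12 h replicate 2). Ubtf, the factor that opens the ribosomal RNA genes, and Polr1a, the largest subunit, were not called, at 0.01 and -0.31.

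Of 9 proteins of small nucleolar particles, 3 fell and 1 rose. Nop58 and Nop56, the paired core proteins of the methylating particles, fell together. Nop58 had 1776 and 1793 units at 0 h, 1728 and 1504 at 6 h and 1088 and 885 at 12 h (log2 -0.85 ± 0.12 against 0 h, adjusted p = 0.000605), and Nop56 fell by 0.69 ± 0.1 (adjusted p = 0.000835). Both 12 h arrays of Nop58 lay below all 0 and 6 h arrays. Nolc1, a chaperone of these particles, fell by 0.88 ± 0.11 (adjusted p = 0.000295). Fbl, the methylase itself, was not called (log2 -0.33, adjusted p = 0.0665). Nop10, a core protein of the pseudouridine particles, was the 1 gene that rose, from 5303 and 5107 to 6802 and 7059 units (log2 0.41, adjusted p = 0.00656; 0.0721 without 0 h replicate 2).

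Assembly of the small subunit had 21 of 40 genes fallen and none risen, with a median of -0.44. With 1 array left out, 13, 10, 16 and 13 fell (0 h replicates 1 and 2, 12 h replicates 1 and 2). Wdr43, a protein of the early processome, had 1553 and 1393 units at 0 h, 921 and 784 at 6 h, 752 and 672 at 12 h and 619 and 535 at 24 h. Each time lay below the one before, and the 12 h level was lower than at 0 h by 2.04-fold (log2 -1.03 ± 0.13, adjusted p = 0.000276). Tsr1, a late assembly factor, fell by 0.98 ± 0.14 (adjusted p = 0.000634), and Tbl3, of the processome, by 0.85 ± 0.11 (adjusted p = 0.000484). Rrp9, which binds the U3 particle, had 593 and 559 units at 0 h, 637 and 633 at 6 h, 276 and 370 at 12 h and 197 and 185 at 24 h. It had not fallen at 6 h and was 0.81 ± 0.15 lower at 12 h than at 0 h on the log2 scale (adjusted p = 0.00252). Utp18, Nop14, Noc4l and Nol11, further processome proteins, fell by 0.66, 0.65, 0.6 and 0.56 (adjusted p = 0.00361, 0.00168, 0.00136 and 0.00322).

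Large subunit assembly had 24 of 45 genes fallen and none risen, with a median of -0.38. With 1 array left out, 14, 15, 18 and 16 fell, in the same order of arrays (0 h replicates 1 and 2, 12 h replicates 1 and 2). Pes1 and Wdr12 belong to 1 complex that is needed for an early cut of the precursor. Pes1 had 1837 and 1581 units at 0 h and 879 and 922 at 12 h (log2 -0.9 ± 0.11, adjusted p = 0.000197), while its other tested probe set changed by 1.35 in the opposite direction. Wdr12 fell by 1.07 ± 0.16 (adjusted p = 0.000728), with -0.08 in its other probe set. Eif6, which keeps the new subunit from joining too early, had 6440 and 6358 units at 0 h, 4892 and 4246 at 6 h, 3525 and 3568 at 12 h and 2796 and 2596 at 24 h. Its 12 h arrays lay below both earlier times, with a log2 difference from 0 h of -0.85 ± 0.1 (adjusted p = 0.000179). The nucleolar GTPases Gnl2 and Gnl3 fell by 0.89 and 0.82 (adjusted p = 0.000708 and 0.000878). Nmd3, the export adaptor, had 1219 and 1237 units at 0 h and 678 and 763 at 12 h and fell by 0.75 ± 0.1 (adjusted p = 0.000554).

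Of 7 nucleolar scaffold proteins, 3 fell, and 1, 2, 3 and 2 did without 0 h replicates 1 and 2 or 12 h replicates 1 and 2. Ncl, nucleolin, had 10058 and 9356 units at 0 h, 8608 and 8720 at 6 h, 5836 and 5600 at 12 h and 4180 and 4425 at 24 h. It dropped at every step, by 0.76 ± 0.09 on the log2 scale between 0 and 12 h (adjusted p = 0.000194), and its 4 probe sets ranged from -1.73 to -0.51. Npm1, nucleophosmin, had 11892 and 12003 units at 0 h and 12201 and 12853 at 12 h and was not called (log2 0.07). Of 11 exosome and trimming genes, 7 fell, and 4, 4, 5 and 6 did without the same arrays. Dis3, the catalytic nuclease of the exosome, had 1598 and 1674 units at 0 h and 794 and 862 at 12 h (log2 -0.96 ± 0.11, adjusted p = 0.000138), and Mphosph6, a cofactor, fell by 1.0 ± 0.15 (adjusted p = 0.000738). Xrn2, a nuclease that trims from the other end, had 1225 and 1310 units at 0 h, 466 and 552 at 6 h and 763 and 873 at 12 h, so it was lowest at 6 h (log2 12 h against 0 h -0.62 ± 0.12, adjusted p = 0.00395).

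The step from 6 to 12 h was compared directly, with 4.94% of genes higher and 3.59% lower at 12 h (8.32% of probe sets called). Of the replication genes 11 rose and none fell, with a median log2 difference of 0.20. Without 12 h replicate 2, 1 rose, and without 12 h replicate 1, 7 rose. Without 6 h replicate 1 or 2 the counts were 9 and 16. Of the ribosome biogenesis genes 32 fell and 1 rose, with a median of -0.30, and without 12 h replicate 1, 12 h replicate 2, 6 h replicate 1 or 6 h replicate 2 the fallen genes numbered 14, 7, 20 and 39. Falls that held with each array left out were those of Rrp9 (log2 -0.94, adjusted p = 0.00452), Heatr1, a processome scaffold (-0.72, adjusted p = 0.00571), Nolc1 (-0.65, adjusted p = 0.00636) and Ncl (-0.6, adjusted p = 0.00318). Rises included Tk1, given above, and Rfc2 (log2 0.61, adjusted p = 0.00738; 0.0537 without 12 h replicate 2).

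From 12 to 24 h, 4.11% of genes were higher and 3.27% lower (6.88% of probe sets called). Of the replication genes 1 was called, Rrm2, lower at 24 h by 0.39 (adjusted p = 0.0327; 0.0968, 0.152, 0.122 and 0.242 without 12 h replicates 1 and 2 and 24 h replicates 1 and 2), and the median was -0.08. Of the ribosome biogenesis genes 14 fell and the median was -0.20, but 3, 1, 2 and 0 fell with the same arrays left out in turn. The comparisons with 0 h share the 0 h arrays, and their values stand side by side here without a test. Of the replication genes, 12 were higher and 10 lower at 6 h (background 9.13% and 9.38% of genes), 28 and 6 at 12 h, and 26 and 8 at 24 h (background 18.6% and 16.6%), with medians of 0.11, 0.25 and 0.20. Of the ribosome biogenesis genes, 15, 60 and 90 were lower at 6, 12 and 24 h, with medians of -0.07, -0.38 and -0.56.

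**Figure D3:**
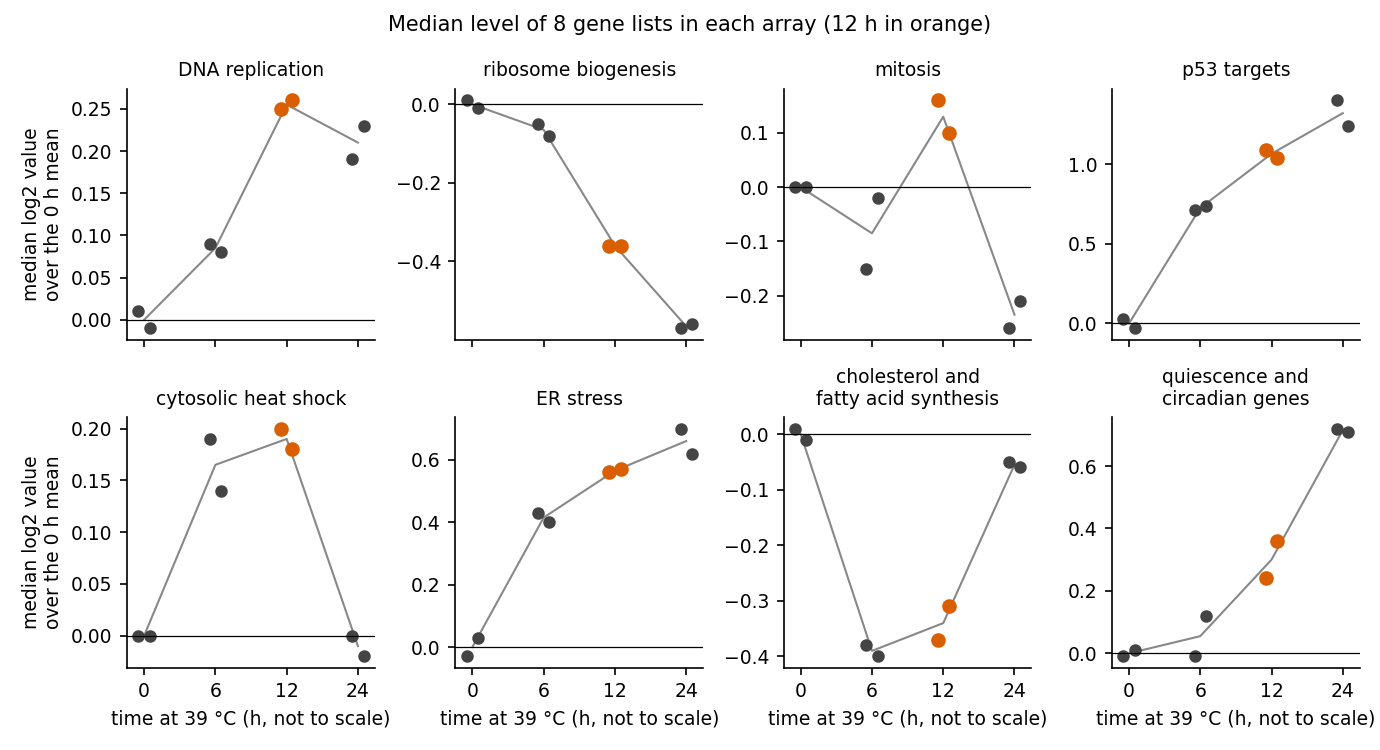
Median log2 difference from the 0 h mean (y axis) over the tested genes of 8 lists, for each array, against hours at 39 °C (x axis). The replication median stands at 0.25 and 0.26 in the 12 h arrays and at 0.19 and 0.23 in the 24 h arrays, while the ribosome biogenesis median goes on falling after 12 h.

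Of 24 genes of the MYC network, 7 fell (29.2%, against 12.0% of all genes) and 3 rose (12.5%, against 13.3%), with a median of -0.16. With 1 array left out, 3, 5, 5 and 5 fell (0 h replicates 1 and 2, 12 h replicates 1 and 2). Myc itself had 1278 and 1112 units at 0 h, 726 and 679 at 6 h, 774 and 726 at 12 h and 777 and 634 at 24 h. It was low from 6 h on (12 h against 0 h log2 -0.65 ± 0.13, adjusted p = 0.00357; 0.0529 without 0 h replicate 1). Mxd4, which competes with MYC for its partner MAX, had 235 and 218 units at 0 h, 393 and 378 at 6 h, 774 and 701 at 12 h and 956 and 861 at 24 h. It rose by 1.61 ± 0.12 (adjusted p = 9.71e-06) and Mlx, a MAX-like partner, by 0.84 (adjusted p = 0.00176). Of 16 metabolic genes known as MYC targets, 6 fell, 1 rose (Hspe1, given with the heat shock genes) and 9 were not called. The largest falls were those of Cad, of pyrimidine synthesis, by 0.76 (adjusted p = 0.000855), and of Odc1 and Srm, of polyamine synthesis, by 0.61 and 0.55 (adjusted p = 0.000971 and 0.00185). Odc1 had 2273 and 2182 units at 0 h, 2465 and 2595 at 6 h and 1409 and 1504 at 12 h, and Srm 3493 and 3476, 4335 and 4116, and 2505 and 2236. Both were thus below 0 h at 12 h but not at 6 h, and their falls from 6 to 12 h were -0.79 and -0.83 (adjusted p = 0.00107 and 0.000916).

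In the G1/S list, 6 of 26 genes rose and none fell, against 13.3% and 12.0% of all genes, with a median of 0.19. Without 0 h replicates 1 and 2 or 12 h replicates 1 and 2, 2, 2, 5 and 3 rose. The 2 members whose rise held with each array left out are both known as brakes on entry into S phase. Cdkn1a, the p21 inhibitor of cyclin-dependent kinases, had 912 and 808 units at 0 h, 6204 and 6461 at 6 h, 7347 and 7324 at 12 h and 8582 and 8342 at 24 h. The 12 h level was 8.36-fold that at 0 h, the largest rise of the 7707 tested genes (log2 3.06 ± 0.09, adjusted p = 1.98e-08). Rb1, the retinoblastoma protein, had 107 and 90 units at 0 h, 87 and 131 at 6 h, 204 and 221 at 12 h and 420 and 469 at 24 h (log2 12 h against 0 h 0.97 ± 0.2, adjusted p = 0.00484). Not all such brakes rose: the inhibitors Cdkn1b, Cdkn2a and Cdkn2b were not called (log2 0.21, -0.2 and -0.13). Cdkn2d was called at 0.45 (adjusted p = 0.0234), but not with centred arrays (0.0504). Ccne2 and Ccnd1, cyclins that drive the entry, had differences of 0.95 and 0.49 (adjusted p = 0.0141 and 0.00792). Both calls were lost without 0 h replicate 1 (0.0573 and 0.0622), 0 h replicate 2 (0.0965 and 0.0595) or 12 h replicate 2 (0.0876 and 0.068).

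Of 54 mitotic genes, 12 rose (22.2%, against 13.3% of all genes) and 2 fell, with a median of 0.13. Without 0 h replicates 1 and 2 or 12 h replicates 1 and 2, 8, 6, 6 and 8 rose and 0, 0, 3 and 0 fell. Kifc1, a spindle motor, had 235 and 339 units at 0 h, 609 and 525 at 6 h, 703 and 633 at 12 h and 552 and 483 at 24 h (12 h against 0 h log2 1.18 ± 0.17, adjusted p = 0.000589). Ube2c, the enzyme that marks cyclins for destruction, had 3952 and 3384 units at 0 h, 5122 and 4645 at 6 h, 6271 and 6456 at 12 h and 4209 and 3873 at 24 h. Its 12 h arrays were the highest, by 0.8 ± 0.1 over 0 h on the log2 scale (adjusted p = 0.000392). The fall from 12 to 24 h was 0.65 (adjusted p = 0.00591; 0.083 without 24 h replicate 2). Spc25, of the kinetochore, rose by 0.74 ± 0.11 (adjusted p = 0.000669), Hmmr, a spindle protein, by 0.55 (adjusted p = 0.00344), and Stmn1, which takes microtubules apart, by 0.48 (adjusted p = 0.00397). Over the whole list, 14 genes rose and none fell from 6 to 12 h, against 4.94% of all genes higher. From 12 to 24 h 18 fell and none rose, against 3.27% of all genes lower. Without 12 h replicates 1 or 2 and 6 h replicates 1 or 2 the first count was 0, 7, 9 and 14. Without 12 h replicates 1 or 2 and 24 h replicates 1 or 2 the second was 5, 5, 6 and 1.

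The CCAAT box, searched on both strands (its reverse is ATTGG), was present in the windows of 35 of 45 mitotic genes (77.8%), against 39.1% of tested genes and 37.9% of all windows. The share was 36 of 64 (56.2%) for replication genes and 40 of 103 (38.8%) for ribosome biogenesis genes. The 2 mitotic genes with the largest rises are shown, each with a pair of boxes in capitals.
Ube2c, chr2:164769834-164769913, plus strand: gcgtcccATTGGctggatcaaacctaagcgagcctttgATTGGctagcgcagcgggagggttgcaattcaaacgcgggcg
Kifc1, chr17:33890637-33890716, minus strand: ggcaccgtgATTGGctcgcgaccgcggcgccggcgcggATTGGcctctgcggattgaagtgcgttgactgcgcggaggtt

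Among all genes, 5 were higher at 12 h than at 0, 6 and 24 h by all 3 tests. These were Rrm2 and Ube2c, given above, the mitochondrial ribosomal protein gene Mrpl39, the nucleotide hydrolase gene Nudt5 and the kinetochore gene Ndc80, and they were chosen after their values were seen. Mrpl39 had 1485 and 1436 units at 0 h, 2056 and 2109 at 6 h, 2735 and 2661 at 12 h and 1967 and 1949 at 24 h, so that the 12 h arrays stood above all others (12 h against 0 h log2 0.88, adjusted p = 8.39e-05). It was 0.37 above 6 h (adjusted p = 0.0293, lost at 0.111 without 12 h replicate 1 and at 0.101 without 12 h replicate 2) and fell by 0.46 from 12 to 24 h (adjusted p = 0.014, lost without any 1 of these 4 arrays, at 0.0668 to 0.119). Ndc80 too kept none of its 3 calls with each array left out, nor did Rrm2.

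Of 38 tested targets of p53, 24 rose (63.2%) and none fell, with a median of 1.07, and 22, 22, 21 and 24 rose without 0 h replicates 1 and 2 or 12 h replicates 1 and 2. The shares over all genes were 13.3% risen and 12.0% fallen, with a median of 0.02. Trp53inp1, which promotes cell death and autophagy, had 413 and 430 units at 0 h, 1696 and 1953 at 6 h, 3333 and 3205 at 12 h and 5262 and 5700 at 24 h (12 h against 0 h log2 2.89 ± 0.1, adjusted p = 5.33e-08). Its levels at the 4 times did not overlap. Ephx1, an epoxide hydrolase, had 1265 and 1161, 2570 and 2580, 6486 and 6097, and 9429 and 9227 units at the 4 times, and more than doubled between 6 and 12 h (log2 1.28, adjusted p = 4.55e-05). Ccng1, a cyclin that p53 induces, and Mdm2, the ligase that destroys p53, rose by 2.45 and 2.3 (adjusted p = 5.33e-08 and 1.98e-07), and Ddit4, an inhibitor of the growth kinase mTOR, by 2.13 (adjusted p = 1.75e-06). The p53 element, a paired decamer searched by its full form, was in 0 of 31 windows of these genes and in 0 of all tested genes with a window, which says only that these letters are not within 300 bases.

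Of 45 heat shock genes, 17 rose and 6 fell against 0 h, with a median of 0.18, and 14, 13, 15 and 16 rose with 0 h replicates 1 and 2 or 12 h replicates 1 and 2 left out. The falls numbered 1, 1, 2 and 2 then. Over all genes 13.3% rose and 12.0% fell at 12 h against 0 h, so the share of falls in this list was near that of all genes. From 6 to 12 h 8 genes fell and none rose, against 3.59% of all genes lower. From 12 to 24 h 14 fell and none rose, against 3.27% of all genes lower. The first count was 5, 3, 7 and 7 without 12 h replicates 1 and 2 or 6 h replicates 1 and 2, and the second 4, 8, 3 and 1 without 12 h replicates 1 and 2 or 24 h replicates 1 and 2. Hsph1, a large co-chaperone, had 972 and 952 units at 0 h, 9280 and 7919 at 6 h, 5030 and 4683 at 12 h and 2501 and 2371 at 24 h. It was 4.96-fold higher at 12 than at 0 h (log2 2.31 ± 0.1, adjusted p = 1.98e-07), and lower than at 6 h by 0.82 (adjusted p = 0.00145). From 12 to 24 h it fell by a further 0.99 (adjusted p = 0.000901). Hspa1a, the inducible Hsp70, had 270 and 307, 3403 and 4085, 918 and 1090, and 551 and 669 units, and fell by 1.88 from 6 to 12 h (adjusted p = 6.04e-05). Cryab, a small heat shock protein, and Fkbp4, a partner of Hsp90, were higher at 12 than at 0 h by 1.07 and 1.03 (adjusted p = 0.000105 and 0.000102). The heat shock element (GAA, TTC and GAA, or TTC, GAA and TTC, with 2 free bases between the words, on either strand) lay in 4 of 39 windows of the list (10.3%), 3 of 15 that rose, 0.395% of tested genes and 0.529% of all windows. Hspe1, the mitochondrial co-chaperonin, which is also in the MYC network list, rose from 3758 and 4245 to 8019 and 6168 units (log2 0.81 ± 0.12, adjusted p = 0.000878), and its overlapping elements are shown in capitals.
Hspe1, chr1:55088030-55088109, plus strand: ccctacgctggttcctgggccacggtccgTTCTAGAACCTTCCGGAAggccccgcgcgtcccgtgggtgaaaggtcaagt

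Chaperones and sensors of the endoplasmic reticulum rose as well, 19 of 33 (57.6%, against 13.3% of all genes), with 1 fallen and a median of 0.47. Without 0 h replicates 1 and 2 or 12 h replicates 1 and 2, 14, 15, 17 and 15 rose. Serpinh1, the collagen chaperone, rose by 1.69 (adjusted p = 4.22e-05), Sdf2l1 by 1.61 (adjusted p = 6.44e-06) and Xbp1, a factor that drives this response, by 1.26 (adjusted p = 2.26e-05). Hsp90b1, the Hsp90 of this compartment, had 3454 and 3404 units at 0 h, 7490 and 7377 at 6 h, 8800 and 7778 at 12 h and 7947 and 8282 at 24 h, a plateau from 6 h on (12 h against 0 h log2 1.27 ± 0.09, adjusted p = 8.69e-06). Herpud1, of protein degradation, had 287 and 324 units at 0 h, 283 and 255 at 6 h, 667 and 841 at 12 h and 580 and 693 at 24 h. It rose after 6 h, by 1.41 (adjusted p = 0.000523), and stood 1.24 ± 0.15 above 0 h at 12 h (adjusted p = 0.000242). The ER stress element (CCAAT and CCACG with 9 free bases between) was in 10 of 28 windows of the list on either strand (35.7%), 8 of 18 that rose (44.4%), 0.205% of tested genes and 0.13% of all windows; it contains a CCAAT box. Shown are 3 genes that rose, with the element in capitals; Hspa5 and Creld2 were chosen for their windows.
Hspa5, chr2:34771994-34772073, plus strand: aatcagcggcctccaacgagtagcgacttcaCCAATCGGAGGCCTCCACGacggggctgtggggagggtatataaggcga
Hsp90b1, chr10:86705503-86705582, minus strand: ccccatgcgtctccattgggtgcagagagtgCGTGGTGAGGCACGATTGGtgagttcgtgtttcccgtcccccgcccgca
Creld2, chr15:88819489-88819568, plus strand: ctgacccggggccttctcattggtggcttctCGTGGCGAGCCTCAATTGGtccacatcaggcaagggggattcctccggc
Hspa5, the main chaperone there, had 5781 and 6357 units at 0 h and 10648 and 11955 at 12 h (log2 0.89 ± 0.12, adjusted p = 0.000487), and Creld2 had 1181 and 975 against 2494 and 2495 units (log2 1.2 ± 0.13, adjusted p = 0.000128).

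Other lists had more falls than rises at 12 h, when 12.0% of all genes were lower and 13.3% higher than at 0 h. Of 31 cholesterol and fatty acid synthesis genes, 13 fell and 1 rose, with a median of -0.38; without 0 h replicate 1, 7 fell, and without each of the other arrays between 10 and 12. Sqle, an enzyme of squalene oxidation, fell by 0.93 (adjusted p = 0.000121). Cyp51, a sterol demethylase, had 1728 and 1771 units at 0 h, 1180 and 1211 at 6 h, 1043 and 996 at 12 h and 1476 and 1460 at 24 h, so that it was lowest at 12 h (12 h against 0 h log2 -0.77, adjusted p = 0.000262). Of 24 targets of the actin-regulated factors SRF and YAP, 13 fell and none rose, with a median of -0.35; 6, 8, 9 and 8 fell with 0 h replicates 1 and 2 or 12 h replicates 1 and 2 left out. The 24 include the factor genes Srf, Yap1 and Wwtr1, of which only Wwtr1 was called (log2 -0.37, adjusted p = 0.0138). Ccn2, a matricellular growth factor, had 2608 and 2587 units at 0 h, 1550 and 1429 at 6 h, 514 and 530 at 12 h and 442 and 478 at 24 h. It fell by 2.27 ± 0.1 to 12 h (adjusted p = 1.98e-07), of which 1.47 came after 6 h (adjusted p = 4.55e-05). Ccn1, its relative, fell by 1.49 (adjusted p = 9.71e-06) and Flna, an actin crosslinker, by 0.93 (adjusted p = 0.000109). Cnn2, calponin, had 4745 and 4403 units at 0 h and 2811 and 2648 at 12 h (log2 -0.74 ± 0.09, adjusted p = 0.000313). Its window holds a CArG box, the SRF word, in capitals here, as did 4 of 22 windows of the list (18.2%) and 2 of 12 of its genes that fell (16.7%). The share was 1.4% of tested genes and 1.57% of all windows.
Cnn2, chr10:79988509-79988588, plus strand: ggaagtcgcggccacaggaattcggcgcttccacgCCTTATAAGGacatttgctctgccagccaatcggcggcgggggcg

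Of 33 proteasome genes, 12 fell and 1 rose, with a median of -0.25, and 5, 4, 6 and 6 fell and none rose with 0 h replicates 1 and 2 or 12 h replicates 1 and 2 left out. Psmd8, a lid subunit, went from 8666 and 8619 to 4812 and 4744 units (log2 -0.85, adjusted p = 0.000288). Of 33 tRNA synthetase and amino acid genes, 9 fell and 2 rose, with a median of -0.18; 4, 5, 6 and 6 fell and 1, 1, 2 and 1 rose with the same arrays left out. The transporters Slc1a5 and Slc7a5 fell by 1.18 and 1.1 (adjusted p = 0.00172 and 0.000804). Of 40 translation factor genes, 6 fell and 1 rose, with a median of -0.09, and that share of falls is near the 12.0% of all genes. By contrast, none of 42 cytosolic ribosomal protein genes fell. Of these 7 rose, but 1, 1, 2 and 1 with the same arrays left out, and the median of 0.26 became 0.04 after quantile normalization. In the 74 mitochondrial ribosomal protein genes 10 rose (13.5%) and 8 fell (10.8%), close to the 13.3% and 12.0% of all genes, with a median of 0.00, and with the same arrays left out 6, 6, 6 and 8 rose and 1, 1, 1 and 4 fell.

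RNA-binding proteins went both ways, with 5 of 34 risen and 9 fallen; without the same arrays in turn (0 h replicates 1 and 2, 12 h replicates 1 and 2), 2, 2, 3 and 2 rose and 6, 4, 6 and 5 fell. Over all genes 13.3% rose and 12.0% fell, so the share of rises in this list was near that of all genes. Cirbp, the cold-inducible RNA-binding protein, had 347 and 357 units at 0 h, 9.4 and 41.5 at 6 h, 22.1 and 67.4 at 12 h and 76 and 75.2 at 24 h. Its fall at 12 h was the largest of the 7707 tested genes (log2 -2.58 ± 0.38, adjusted p = 0.00078). Cirbp passed the filter on dim signals only through its 0 h arrays, and its 12 h signals were near the offset of 21.9 units. The size and rank of this fall therefore depend on the filter and the offset. Hnrnpd, which destabilises AU-rich messages, fell from 1854 and 1965 to 618 and 553 units (log2 -1.67, adjusted p = 3.61e-06). Srsf5, a splicing factor, had 3539 and 4049 units at 0 h, 805 and 942 at 6 h and 2861 and 2711 at 12 h. It was lowest at 6 h and rose again to 12 h (12 h against 6 h log2 1.65, adjusted p = 4.55e-05), when both arrays were still below both 0 h arrays.

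Of 16 genes of quiescence 10 rose and none fell (against 13.3% and 12.0% of all genes), while of 12 circadian clock genes 2 rose, 1 fell and 9 were not called. Over both, 12 rose, and 8, 10, 10 and 10 did with 0 h replicates 1 and 2 or 12 h replicates 1 and 2 left out. Pnrc1, a nuclear receptor coactivator, had 655 and 641, 1403 and 1542, 2855 and 3101, and 5428 and 4863 units at 0, 6, 12 and 24 h and rose at each step (12 h against 0 h log2 2.16 ± 0.1, adjusted p = 2.46e-07). Ccng2, a cyclin of resting cells, had 638 and 709 units at 0 h, 616 and 756 at 6 h and 1571 and 1632 at 12 h, a rise that began after 6 h (log2 12 h against 6 h 1.2, adjusted p = 0.000402). Btg2 and Btg1, which slow division, rose by 1.38 and 0.96 (adjusted p = 6.85e-05 and 0.000499). Of 55 lysosome and autophagy genes, 17 rose and none fell, with a median of 0.18; 7, 6, 9 and 9 rose with the same arrays left out. Hexa, a hexosaminidase, rose by 0.99 (adjusted p = 0.000119) and Tpp1, a peptidase, by 0.78 (adjusted p = 0.00018). Of 27 interferon and antigen presentation genes, 8 rose and none fell; 4, 6, 5 and 8 rose with the same arrays left out. Tap1, the peptide transporter, rose by 1.3 (adjusted p = 0.000666). Calr, 1 of the 8, was also counted with the chaperones of the endoplasmic reticulum above. H2-K1 and H2-D1, of antigen presentation, were not called (log2 0.05 and -0.18). Of 15 Notch pathway genes, 5 rose; 3, 4, 3 and 4 did with the same arrays left out. Notch1, the receptor, had 155 and 193 units at 0 h, 867 and 664 at 6 h, 1265 and 984 at 12 h and 1579 and 1380 at 24 h (12 h against 0 h log2 2.54 ± 0.17, adjusted p = 3.78e-06). Hes1, a target of the pathway, rose by 0.74 (adjusted p = 0.0034).

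**Figure D4:**
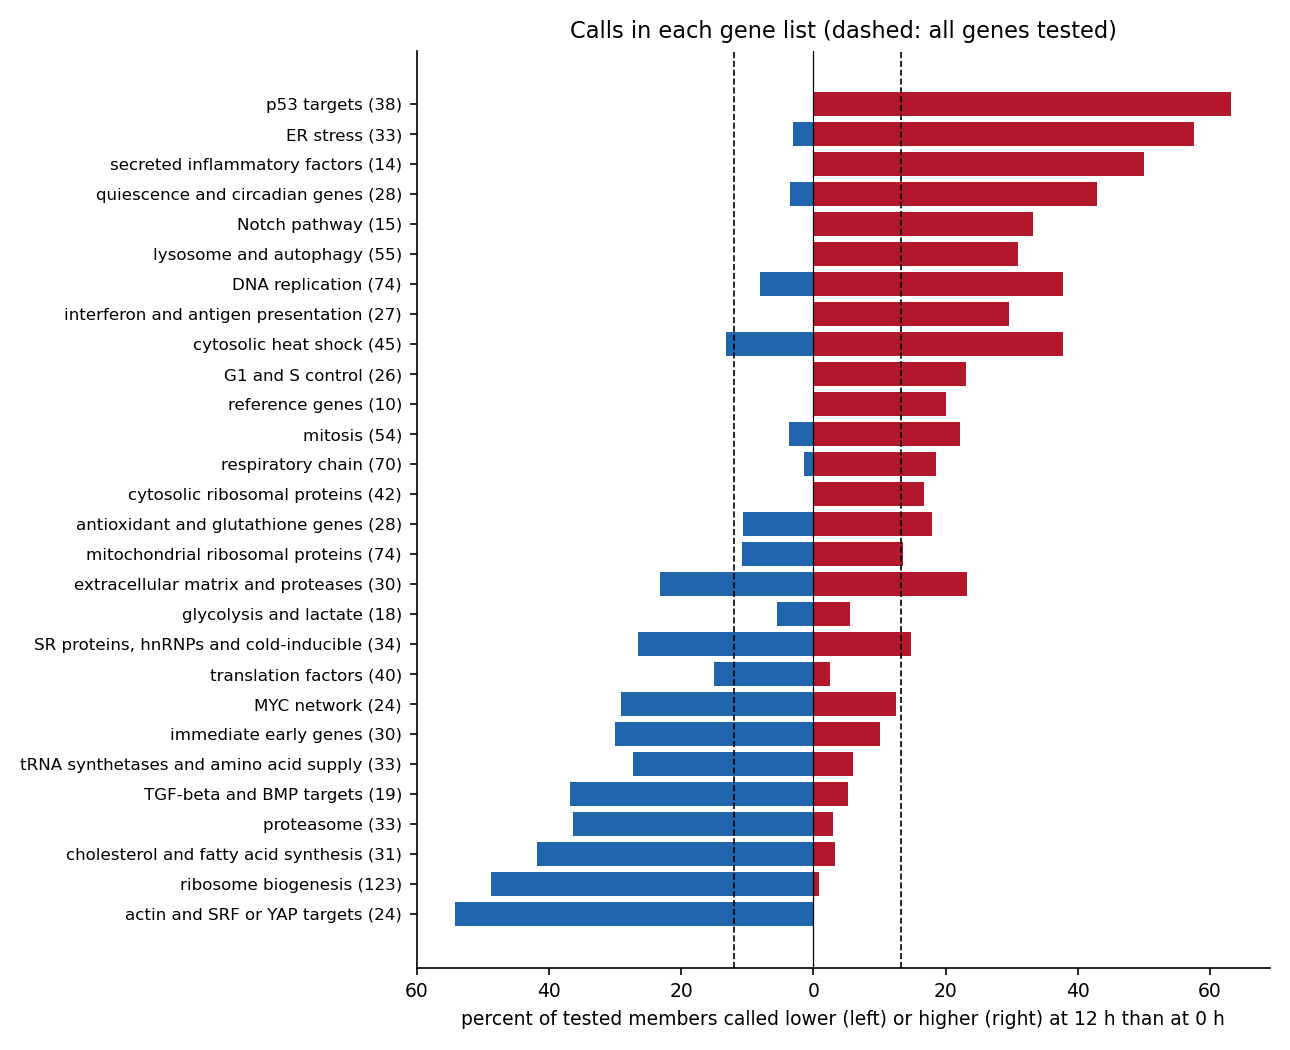
Percent of each list's tested genes (x axis) called lower (left) or higher (right) at 12 h against 0 h, 1 row per list, with dashed lines at the 12.0% and 13.3% of all tested genes. The p53 targets reach 63.2% higher and the ribosome biogenesis genes 48.8% lower.

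Of 19 genes of TGF-beta and BMP signalling, 7 fell and 1 rose; 5, 5, 6 and 4 fell and 0, 0, 1 and 0 rose with 0 h replicates 1 and 2 or 12 h replicates 1 and 2 left out. The counts of this paragraph stand beside 13.3% of all genes higher and 12.0% lower. The share of rises was below that of all genes in the early response list and not far above it in the respiratory chain list. Fstl1, a secreted antagonist, fell from 2295 and 2262 to 698 and 828 units (log2 -1.56, adjusted p = 7.17e-06), and Thbs1, which activates TGF-beta, by 1.08 (adjusted p = 6.34e-05). Of 30 early response genes, 9 fell and 3 rose; 4, 5, 6 and 6 fell and 0, 2, 2 and 2 rose with the same arrays left out. Klf6, a zinc finger factor, had 982 and 974, 547 and 602, 432 and 398, and 632 and 549 units at 0, 6, 12 and 24 h (12 h against 0 h log2 -1.2, adjusted p = 6.94e-05). Of 30 matrix and protease genes, 7 rose and 7 fell; with the same arrays left out 4, 4, 4 and 6 rose and 3, 4, 6 and 3 fell. The proteases Mmp10 and Mmp13 rose by 2.05 and 1.59 (adjusted p = 2.34e-05 and 6.23e-05), and Fn1, fibronectin, fell by 0.86 (adjusted p = 0.000109). Of 14 secreted and surface factors, 7 rose and none fell, among them Angptl4, a lipase inhibitor, by 1.81 (adjusted p = 2.36e-05) and Vcam1, an adhesion receptor, by 1.57 (adjusted p = 2.38e-05). Others of the 7 were less firm. Cxcl12 (log2 0.35, adjusted p = 0.0441) was not called with centred arrays (0.123), and its other probe set changed by -0.74. Cxcl15 and C1s1 rose by 0.95 and 0.98 from dim levels, 50.1 and 34.5 units and 48.5 and 65.0 units at 0 h. Of 70 respiratory chain genes, 13 rose and 1 fell, with a median of 0.17, but 2, 3, 4 and 6 rose with the same arrays left out. Among 28 antioxidant genes 5 rose (17.9%) and 3 fell (10.7%), near the 13.3% and 12.0% of all genes (3, 2, 4 and 3 rose and 3, 3, 5 and 3 fell with the same arrays left out), and Nfe2l2, their master factor, rose by 0.95 (adjusted p = 0.000138). The 3 antioxidant genes that fell were Txnrd3 by 1.6, Nqo1 by 1.09 and Abcc1 by 0.95 (adjusted p = 0.000385, 0.00252 and 0.000857). Of 18 genes of glycolysis 1 rose, Pfkl by 1.11 (adjusted p = 8.92e-05), and 1 fell, Aldoc by 1.17 (adjusted p = 0.00164). Of 6 histone genes 2 rose and 1 fell, and 1, 0, 1 and 2 rose with the same arrays left out. This list also holds Slbp, which binds histone messages and is not itself a histone. Slbp was 1 of the 2 that rose (log2 0.37), beside the variant histone H2az2 (0.51). H1f2, a linker histone, went from 1444 and 1411 units at 0 h to 234 and 280 at 6 h and 321 and 308 at 12 h (12 h against 0 h log2 -2.11, adjusted p = 3.61e-06).

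Of the 15 largest rises, those not yet named were Dglucy (log2 2.38), Sulf2 (2.06), Phlda3 (2.02), Lmcd1 (1.99) and Krt13 (1.98). Sulf2, which trims heparan sulfate, had 182 and 248 units at 0 h and 962 and 946 at 12 h (adjusted p = 1.2e-05). Among the 15 largest falls were Cacna2d1, a calcium channel subunit (-2.17), Nbl1, a BMP antagonist (-1.92), Eif2s3y, a Y-linked initiation factor (-1.88), Edn1, endothelin (-1.66), Txnrd3, a thioredoxin reductase (-1.6), and Ofd1, of the centriole (-1.48). Nbl1 had 191.1 and 140.7 units at 0 h and 40.2 and 17.0 at 12 h. Its 12 h signals were near the offset of 21.9 units, so the size of its fall depends on that offset. Eif2s3y had 531 and 512 units at 0 h and 131 and 121 at 12 h (adjusted p = 1.8e-05). Thbs2 and Vti1a fell by 1.43 and 1.42, and Hoxb9 by 1.52 (adjusted p = 0.00561; 0.0678 without 0 h replicate 1). Between 12 and 24 h the largest rise that held with each array left out was in Dcn, decorin of the matrix, with 1471 and 1410, 1292 and 1123, 1466 and 1403, and 6274 and 5423 units at 0, 6, 12 and 24 h. At 12 h it was still at its starting level (log2 -0.01 against 0 h), and 24 h stood 2.01 above (adjusted p = 1.27e-05). Rps25, a ribosomal protein gene, had 1480 and 1604 units at 12 h and 626 and 628 at 24 h (24 h against 12 h log2 -1.27).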

How the data were processed

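Total RNA of each TTE3 sample was labelled with biotin by in vitro transcription and hybridised to 1 array, per the labels' protocols. The table holds linear intensities as deposited, 1 per probe set and array, from 0.1 to 38130.2 units. The software behind them is not given in the sources used here. With 2% of values trimmed at each end, array means were between 500.18 and 500.2, so the arrays had been set to 1 level before deposit, and a change in total RNA per cell is not visible. For actin, the 3' over the 5' control signal lay between 1.03 and 1.133. Detection calls were not used here, and 2 arrays per time limit the precision.

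Here 64 control probe sets were left out. The platform annotation gave 1 symbol to 20380 probe sets, several to 691 and none to 1555. Values were taken as log2(intensity + 21.9), the offset being the 20th percentile of all values, so differences of dim genes are understated. Probe sets with a mean under 6.584 (the 40th percentile) were left out. The model had the 4 times as groups and took in all 8 arrays (limma 3.58.1 in R 4.3.3, lmFit and eBayes with a trend, 4 residual and 7.22 prior degrees of freedom, two-sided moderated contrasts), and p-values were adjusted over 13576 probe sets by Benjamini-Hochberg. In simulated data for 12 h against 0 h over these probe sets, 71% of 200 changed by 1 on the log2 scale were recovered. In the data 24.0% of probe sets were called, a far larger share than was changed in the simulation. The adjustment was therefore stricter in the simulation, and the 71% does not give the recovery in these data. The brightest probe set stands for a gene. Tables were handled in Python 3.11.15 with pandas 2.3.3.

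The 35 gene lists and the members were chosen with earlier results of these data known. Lists are described by counts and medians, and no list was tested. Named were the 15 largest rises and falls at 12 h without overlap between the arrays, members of the replication and ribosome lists (first the 5 largest called changes of a role in each direction), up to 6 called changes in each direction and up to 3 uncalled members of other lists, and the 5 largest changes in each direction of the steps 6 to 12 h and 12 to 24 h. Promoter sequences are from RefSeq, GRCm38.p6. Alternatives were the offset, the filter, the normalization, the variance trend, the arrays in the fit, the probe set of a gene, each array left out, and the replicate number as a block.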

Additional observations from a re-analysis of the deposited data

Results flagged for a closer look

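The call had one direction at 12 h against 0 h and the other at 24 h against 0 h for 3 genes. Aurka, a mitotic kinase, had 1269 and 1026 units at 0 h, 1522 and 1422 at 6 h, 1530 and 1469 at 12 h and 885 and 847 at 24 h. Its log2 difference of 24 h against 12 h was -0.78 (limma, adjusted p = 0.00407; 0.0612 without 24 h replicate 2). Its call at 12 h against 0 h (0.39, adjusted p = 0.0325) was lost without 0 h replicate 2 (0.283), 12 h replicate 1 (0.127) or 12 h replicate 2 (0.0858). Scd1, a fatty acid desaturase, had 3078 and 2514, 2061 and 1789, 2126 and 1878, and 3983 and 4065 units at 0, 6, 12 and 24 h, and its log2 difference of 24 h against 12 h was 1.0 (adjusted p = 0.00131). The 12 h call of Scd1 (-0.47, adjusted p = 0.0152) was lost without 0 h replicate 1 (0.17) or 12 h replicate 2 (0.105). Jun, an early response factor, had 886 and 853, 540 and 507, 624 and 612, and 1241 and 1285 units, and its log2 difference of 24 h against 12 h was 1.01 (adjusted p = 0.000901). The 12 h call of Jun was lost without 0 h replicate 1 (0.0667).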

How the results depend on the processing

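The number of probe sets called at 12 h against 0 h, 3257, ranged from 1523 to 2256 with 1 array left out. From 6 to 12 h it was 1130 and became 644 with no filter, 606 without the variance trend, 240 with only the arrays of these 2 times in the fit, and 330 to 1552 with 1 array left out. From 12 to 24 h it was 934 and became 529 with no filter, 369 without the trend, and 84 to 318 with 1 array left out. With 1 array left out, the 28 risen replication genes became 16 to 22, the 60 fallen ribosome biogenesis genes 35 to 47, and the 300 other listed genes called 162 to 208. With the brightest probe set per gene, no called gene that was listed or named reversed its direction under these settings. For 7 of them another probe set was called the other way (Brix1, Cxcl12, Hspa4, Mrpl57, Nasp, Pes1 and Ypel5). Of 405 listed or named genes called at 12 h, 225, 235, 282 and 269 were called without 0 h replicate 1, 0 h replicate 2, 12 h replicate 1 and 12 h replicate 2, 321 without the trend, 332 with no filter and 359 with centred arrays. Samples with the same replicate number deviated together only weakly (correlations from 0.05 to 0.18). The labels do not say what the numbers share, so they are not known to pair samples. With the number as a replicate block, 3647 probe sets were called at 12 h, with 29 replication genes risen and 65 ribosome genes fallen, and all 405 listed or named genes stayed called. Dim probe sets have the least reliable differences, since detection was not used here.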
